A study of Mus musculus with 10 samples.

Results

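Replication-dependent histone genes encode the core histones H2A, H2B, H3 and H4, which form the nucleosome, and the linker histone H1, which binds between nucleosomes. Most of them lie in clusters, have no introns and give an mRNA that ends in a stem-loop in place of a poly(A) tail. In dividing cells these mRNAs accumulate in S phase, while the genome is copied, and are degraded when DNA synthesis stops. Replacement histones such as H3.3 and H2A.Z are made from other genes, outside S phase as well, and their mRNAs carry a poly(A) tail.

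The histone genes were taken by symbol, in the older form (Hist1h to Hist4h) or the newer form (H1f, H2ac, H2bc, H3c or H4c with a number), from the Mouse Gene 1.0 ST array. A gene was kept where a probeset was assigned to that symbol alone, and where a gene had several, the probeset with the highest mean signal was used. This gave 30 genes of the 19938 with a probeset of their own: 8 of H1, 4 of H2A, 9 of H2B, 3 of H3 and 6 of H4. By RefSeq, 23 of the 30 lie on chromosome 13, 4 on chromosome 3 and 3 elsewhere. The symbols also take in 6 genes that are not replication-dependent, namely the testis-type histones H1f6, H1f7, H2ac1 and H2bc1, the oocyte-type H1f8 and the replacement linker histone H1f10. The other 24 are the replication-dependent set. RefSeq lists 70 mouse genes of these symbols, of which 36 are read by the array only in probesets shared by several histone genes and 4 by none.

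The arrays measured RNA of mouse embryonic fibroblasts (MEFs), wild type connective tissue cells that were irradiated so that they no longer divided and were then kept in medium with interleukin 3. The groups were MEFs + ALL + nilotinib (3 arrays), MEFs + ALL + DMSO (1 array), MEFs + nilotinib (3 arrays) and MEFs + DMSO (3 arrays), all harvested on day 9. ALL cells are the 8093 line, precursor B acute lymphoblastic leukemia cells of a Bcr/Abl transgenic mouse, and they were kept apart from the MEFs by a Transwell filter. Nilotinib, which inhibits the Abl kinase, was used at 16 nM, with the solvent DMSO as control. Triplicates were separate dishes of MEFs, so p-values measure the spread between dishes. All values are log2 signals, normalized by the authors with RMA. Array medians lay between 6.94 and 7.01, and any 2 arrays correlated at 0.975 to 0.995 over all probesets.

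The group MEFs + ALL + DMSO needs a caution before any result. It holds 1 array, because the methods state that other dishes of the group had been contaminated by ALL cells and were left out. On the array that remained, 10 of 12 measured markers of pre-B and B cells were higher than in MEFs + DMSO, with a median log2 difference of 2.20, and their summed signal on the linear scale was 6050, against 1263 to 1371 in MEFs + ALL + nilotinib, 1234 to 1319 in MEFs + nilotinib and 1278 to 1362 in MEFs + DMSO. All 10 leukocyte markers were higher as well, where 6.67% of all probesets were. Their summed signal was 12353 in MEFs + ALL + DMSO, against 3895 to 4283 in MEFs + DMSO. All 10 fibroblast markers were above the level of olfactory receptor genes on every array. Their summed signal was 49080 in MEFs + ALL + DMSO. It was 54884 to 56031 in MEFs + ALL + nilotinib, 51615 to 58426 in MEFs + nilotinib and 58664 to 60012 in MEFs + DMSO. Their median log2 difference in MEFs + ALL + DMSO over MEFs + DMSO was -0.17, with 2 of 10 above 0. None of 6 macrophage markers passed the test. No value of the group can be had without this array. In RNA of a whole dish, more or fewer cells of a type and more or less RNA per cell cannot be told apart, and the part of ALL cell RNA in the histone values of this array was not tested.

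Histone genes rose on that array. By limma on all 10 arrays, with Benjamini-Hochberg adjustment over 35557 probesets and a threshold of 0.05, 13 of the 30 were higher in MEFs + ALL + DMSO than in MEFs + DMSO and none was lower. Over all probesets 6.67% were called higher and 3.59% lower. The median log2 difference of the 30 genes was 0.46, beside -0.07 over all genes with a probeset of their own. All 13 were among the 24 replication-dependent genes, whose median was 0.85, and 0 of the 6 other genes were called (median -0.11, 1 of 6 with an unadjusted p under 0.05). Of these 6, H1f6, H1f8 and H2bc1 had signals not above the olfactory receptor level. The rise was not particular to replication-dependent genes, since 5 of 9 replacement histones were called higher too. By class the 13 calls were 2 of 8 for H1, 2 of 4 for H2A, 4 of 9 for H2B, 0 of 3 for H3 and 5 of 6 for H4. They were 11 of 23 genes on chromosome 13 and 2 of 4 on chromosome 3. The lone array has no spread of its own, so the test takes its spread to be that of the other groups.

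**Figure D1:**
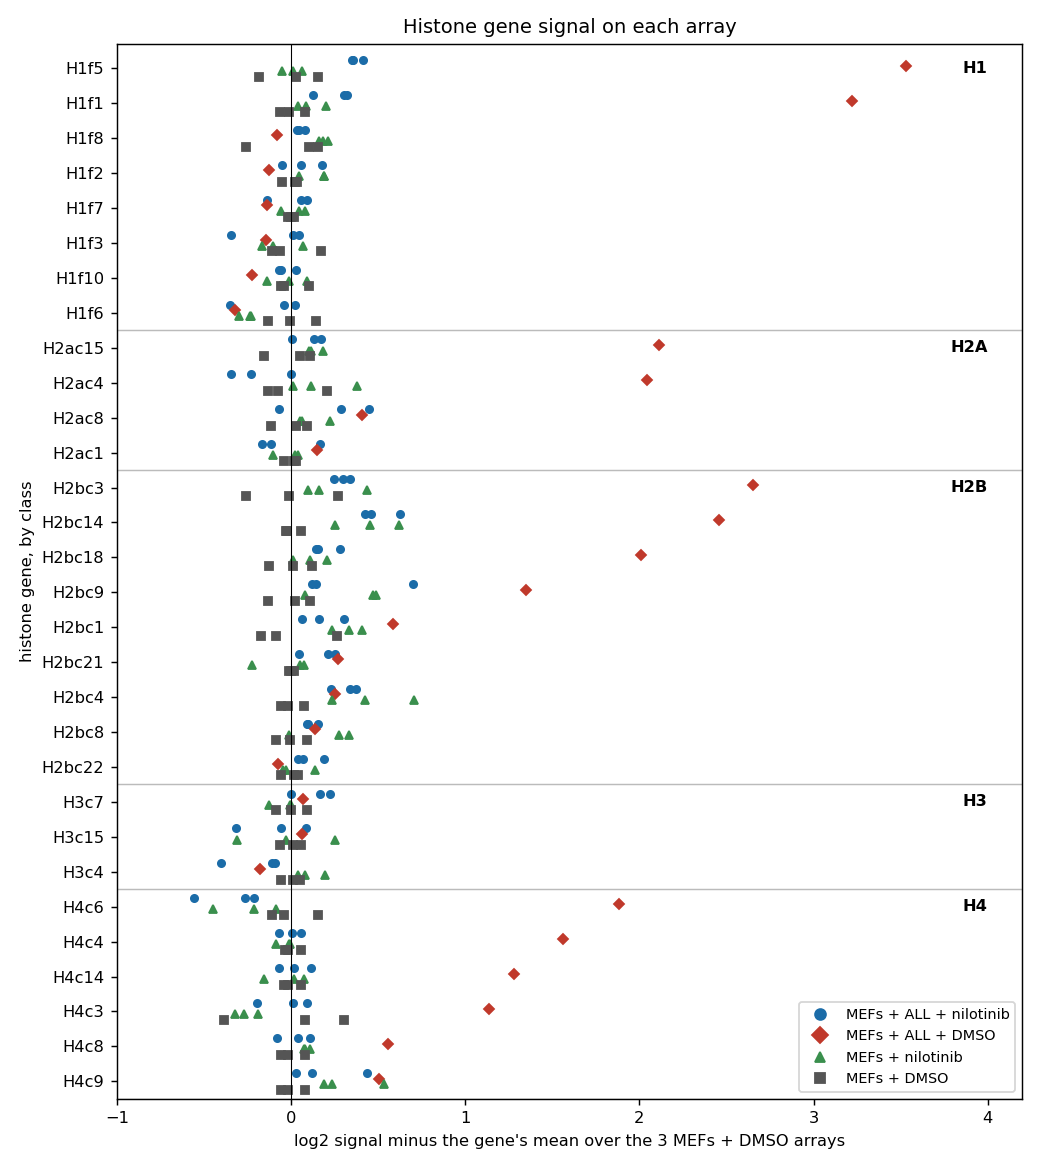
Log2 signal of each of the 30 histone genes on each array, less the mean of that gene over the 3 MEFs + DMSO arrays, with genes as rows by class and each symbol an array. The MEFs + ALL + DMSO array stands far to the right for genes such as H1f5 (3.53) and H2bc3 (2.65), while the arrays of the other groups lie within 1 log2 unit of 0 for every gene.

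Linker histones differed sharply among themselves. H1f5 (older symbol Hist1h1b) measured 8.62, 8.56 and 8.56 in MEFs + ALL + nilotinib, 11.73 in MEFs + ALL + DMSO, 8.15, 8.22 and 8.26 in MEFs + nilotinib, and 8.36, 8.02 and 8.23 in MEFs + DMSO. Its log2 difference between MEFs + ALL + DMSO and MEFs + DMSO was 3.53 (SE 0.125, adjusted p = 1.58e-06), a ratio of 11.5, which ranked 19 from the top of 19938 genes. H1f1 (Hist1h1a) measured 8.62, 8.60 and 8.42 in MEFs + ALL + nilotinib, 11.52 in MEFs + ALL + DMSO, 8.34, 8.38 and 8.50 in MEFs + nilotinib, and 8.38, 8.24 and 8.29 in MEFs + DMSO. It rose by 3.22 (SE 0.112, adjusted p = 1.48e-06), a ratio of 9.34. Both genes encode replication-dependent linker histones, and for both the lone array stood above the other 9. H1f2 (Hist1h1c), a linker histone whose mRNA is also found in cells that have stopped dividing, measured 11.02, 10.79 and 10.90 in MEFs + ALL + nilotinib, 10.72 in MEFs + ALL + DMSO, 10.89, 11.04 and 11.03 in MEFs + nilotinib, and 10.88, 10.79 and 10.87 in MEFs + DMSO. Its difference between MEFs + ALL + DMSO and MEFs + DMSO was -0.13 (95% interval -0.38 to 0.12), so a rise of the size seen for H1f5 or H1f1 lies outside the interval. H1f3 (Hist1h1d) measured 6.08 in MEFs + ALL + DMSO and 6.40, 6.17 and 6.12 in MEFs + DMSO, a signal not above that of olfactory receptor genes. The testis-type H1f6 measured 5.66 in MEFs + ALL + DMSO and 5.85, 6.12 and 5.98 in MEFs + DMSO, and H1f7 measured 6.92 in MEFs + ALL + DMSO and 7.05, 7.06 and 7.08 in MEFs + DMSO. H1f8 and H1f10 had differences of -0.08 and -0.22, and none of these 4 genes passed. The olfactory receptor level of 6.33 log2 units, the 95th percentile of 1035 probesets, stands for genes that fibroblasts should not use, and 22 of the 30 histone genes had a mean above it. The 8 that did not were H1f3, H1f6, H1f8, H2ac8, H2bc1, H2bc22, H3c7 and H3c15, and 0 of them were called. The mean takes in the lone array, so a rise there helps a gene over this level. H2bc21 was over it at 6.39 but had 6.32 in MEFs + DMSO. The genes called on the lone array were above 6.33 in MEFs + DMSO too, the lowest being H2ac15 at 6.56.

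Promoters of linker histone genes that differed on the lone array are shown, with an element known from this class, the H1 box. Whether promoters had a part in the difference was not tested. Each line gives the 130 bases before the annotated start in RefSeq GRCm38.p6, with the H1 box AAACACA in capitals. H1f5 lies at chr13:21780626-21780755 on the minus strand, H1f1 at chr13:23763538-23763667 on the plus strand and H1f2 at chr13:23738677-23738806 on the plus strand.
H1f5: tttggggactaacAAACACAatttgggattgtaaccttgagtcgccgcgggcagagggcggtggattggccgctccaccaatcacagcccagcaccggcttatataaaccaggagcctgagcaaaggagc
H1f1: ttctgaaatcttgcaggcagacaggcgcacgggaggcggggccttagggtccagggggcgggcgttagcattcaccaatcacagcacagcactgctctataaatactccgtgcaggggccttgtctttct
H1f2: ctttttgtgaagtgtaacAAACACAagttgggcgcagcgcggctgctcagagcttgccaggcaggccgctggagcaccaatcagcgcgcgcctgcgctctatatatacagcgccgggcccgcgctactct
The H1 box stood 117 to 111 bases before the start in H1f5 and 112 to 106 bases before it in H1f2, and these letters were not in the H1f1 window on either strand. Searched on both strands, it was found in 4 of the 8 linker histone windows and in 2.98% of all 32851 promoter windows of that length. The H1 box letters were also in 1 of the 4 H2A windows and 2 of the 7 H2B windows.

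Among the H2A genes, H2ac15 (Hist1h2ak) and H2ac4 (Hist1h2ab) moved. H2ac15 measured 6.69, 6.73 and 6.57 in MEFs + ALL + nilotinib, 8.68 in MEFs + ALL + DMSO, 6.68, 6.67 and 6.74 in MEFs + nilotinib, and 6.61, 6.41 and 6.67 in MEFs + DMSO. It rose by 2.11 in MEFs + ALL + DMSO (SE 0.118, adjusted p = 1.24e-05), a ratio of 4.33 to MEFs + DMSO. H2ac4 measured 6.63, 6.39 and 6.28 in MEFs + ALL + nilotinib, 8.67 in MEFs + ALL + DMSO, 6.74, 7.01 and 6.64 in MEFs + nilotinib, and 6.84, 6.49 and 6.56 in MEFs + DMSO, a rise of 2.05 in MEFs + ALL + DMSO (SE 0.192, adjusted p = 2.71e-04). The lone array stood above all others for both genes. H2ac8 was dim, at 4.40 in MEFs + ALL + DMSO and 3.87, 4.01 and 4.08 in MEFs + DMSO. The testis-type H2ac1 measured 7.56 in MEFs + ALL + DMSO and 7.43, 7.44 and 7.37 in MEFs + DMSO (difference 0.15, 95% interval -0.16 to 0.45).

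H2B genes split in the same way. H2bc3 (Hist1h2bb) measured 7.29, 7.19 and 7.25 in MEFs + ALL + nilotinib, 9.60 in MEFs + ALL + DMSO, 7.04, 7.38 and 7.11 in MEFs + nilotinib, and 6.94, 7.22 and 6.69 in MEFs + DMSO. It rose by 2.65 in MEFs + ALL + DMSO (SE 0.196, adjusted p = 6.51e-05), a ratio of 6.28. H2bc14 (Hist1h2bm) measured 8.74, 8.94 and 8.77 in MEFs + ALL + nilotinib, 10.77 in MEFs + ALL + DMSO, 8.57, 8.93 and 8.77 in MEFs + nilotinib, and 8.37, 8.28 and 8.29 in MEFs + DMSO, a rise of 2.46 (SE 0.142, adjusted p = 1.50e-05). H2bc18 (Hist2h2bb), on chromosome 3, measured 8.74 in MEFs + ALL + DMSO and 6.84, 6.60 and 6.73 in MEFs + DMSO and rose by 2.01 (SE 0.121, adjusted p = 1.79e-05). H2bc9 (Hist1h2bh) measured 9.86 in MEFs + ALL + DMSO and 8.38, 8.54 and 8.62 in MEFs + DMSO and rose by 1.35 (SE 0.247, adjusted p = 0.0119). On the lone array these 4 genes stood above every other array. H2bc4 (Hist1h2bc), an H2B gene that can give polyadenylated mRNA in cells that have stopped dividing, measured 12.06, 12.10 and 11.95 in MEFs + ALL + nilotinib, 11.98 in MEFs + ALL + DMSO, 11.96, 12.43 and 12.15 in MEFs + nilotinib, and 11.71, 11.80 and 11.67 in MEFs + DMSO. Its difference between MEFs + ALL + DMSO and MEFs + DMSO was 0.25 (95% interval -0.12 to 0.62). H2bc8 (Hist1h2bg) had a difference of 0.14 (95% interval -0.18 to 0.45) and H2bc21 (Hist2h2be) of 0.27 (95% interval -0.04 to 0.57). The testis-type H2bc1 measured 5.93 in MEFs + ALL + DMSO and 5.17, 5.61 and 5.26 in MEFs + DMSO (difference 0.58, adjusted p = 0.0677), and it passed without MEFs + DMSO replicate 2 (adjusted p = 0.0205).

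H2B promoters are known for an octamer element, ATTTGCAT, bound by Oct-1. It is shown in capitals in 2 genes that rose and in H2bc8, which was not called, together with the H1 box where those letters occur, in the 130 bases before the start. H2bc14 lies at chr13:21721914-21722043, H2bc3 at chr13:23746604-23746733 and H2bc8 at chr13:23571270-23571399, all on the plus strand of RefSeq GRCm38.p6.
H2bc14: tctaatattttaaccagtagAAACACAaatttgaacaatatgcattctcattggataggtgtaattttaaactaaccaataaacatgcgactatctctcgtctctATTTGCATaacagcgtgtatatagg
H2bc3: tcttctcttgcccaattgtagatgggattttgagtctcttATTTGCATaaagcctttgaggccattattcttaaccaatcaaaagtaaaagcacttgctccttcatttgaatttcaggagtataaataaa
H2bc8: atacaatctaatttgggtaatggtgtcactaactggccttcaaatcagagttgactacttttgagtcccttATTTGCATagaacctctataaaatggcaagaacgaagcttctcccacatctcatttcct
The octamer was found on either strand in 4 of the 7 H2B windows the table holds, of which 3 belong to the 4 genes that rose, and in 0.868% of all promoter windows. It stood 25 to 18 bases before the start in H2bc14, 90 to 83 in H2bc3 and 59 to 52 in H2bc8. H2bc9, which rose, and H2bc1 and H2bc22, which were not called, lacked these letters in the window. It was also in 3 of the 4 H2A windows.

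Most H4 genes rose, with 5 of 6 called and differences of 0.51 to 1.88 between MEFs + ALL + DMSO and MEFs + DMSO. H4c6 (Hist1h4f) measured 8.36, 8.07 and 8.42 in MEFs + ALL + nilotinib, 10.51 in MEFs + ALL + DMSO, 8.54, 8.42 and 8.18 in MEFs + nilotinib, and 8.79, 8.52 and 8.59 in MEFs + DMSO. It rose by 1.88 in MEFs + ALL + DMSO (SE 0.180, adjusted p = 3.07e-04), a ratio of 3.69. H4c4 (Hist1h4d) measured 9.87, 9.92 and 9.80 in MEFs + ALL + nilotinib, 11.43 in MEFs + ALL + DMSO, 9.86, 9.78 and 9.86 in MEFs + nilotinib, and 9.85, 9.92 and 9.83 in MEFs + DMSO, a rise of 1.56 (SE 0.0874, adjusted p = 1.24e-05). For these genes too the lone array stood above the other 9. H4c14 (Hist2h4), on chromosome 3, rose by 1.28 (adjusted p = 1.95e-04), with 10.33 in MEFs + ALL + DMSO and 9.04, 9.11 and 9.02 in MEFs + DMSO. H4c3 (Hist1h4c) rose by 1.14 (adjusted p = 0.0180), with 8.30 in MEFs + ALL + DMSO and 6.77, 7.24 and 7.47 in MEFs + DMSO. H4c8 (Hist1h4h) rose by 0.56 (adjusted p = 0.00958), with 7.53 in MEFs + ALL + DMSO and 6.92, 6.96 and 7.05 in MEFs + DMSO. H4c9 (Hist1h4i) measured 8.39 in MEFs + ALL + DMSO and 7.97, 7.87 and 7.83 in MEFs + DMSO and did not pass (difference 0.51, adjusted p = 0.112).

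Promoters of H4 genes hold an element with the letters GGTCCG at its core, a binding site of the factor Hinfp, and it is shown in capitals in the 130 bases before the start of 2 genes that rose and of H4c9. H4c6 lies at chr13:23551669-23551798 on the minus strand, H4c4 at chr13:23581438-23581567 on the plus strand and H4c9 at chr13:22041363-22041492 on the minus strand of RefSeq GRCm38.p6.
H4c6: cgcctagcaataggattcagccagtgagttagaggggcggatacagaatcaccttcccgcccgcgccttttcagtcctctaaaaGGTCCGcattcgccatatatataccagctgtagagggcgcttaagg
H4c4: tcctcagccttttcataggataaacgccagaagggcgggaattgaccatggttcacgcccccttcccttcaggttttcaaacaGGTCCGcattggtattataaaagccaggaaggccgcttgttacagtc
H4c9: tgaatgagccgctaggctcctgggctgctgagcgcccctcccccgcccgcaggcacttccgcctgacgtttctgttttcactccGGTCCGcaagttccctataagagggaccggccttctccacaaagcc
Its first base stood 46 or 47 bases before the start in 4 of the 5 H4 windows the table holds, those of H4c3, H4c4, H4c6 and H4c9. H4c8, which rose, lacked these letters and H4c9, which was not called, had them. The letters were also in the window of H2bc9, an H2B gene that rose, and in 3.96% of all promoter windows on either strand. Among the 26 histone genes with a window in the table, 0 matches of the 3 elements overlapped another.

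**Figure D2:**
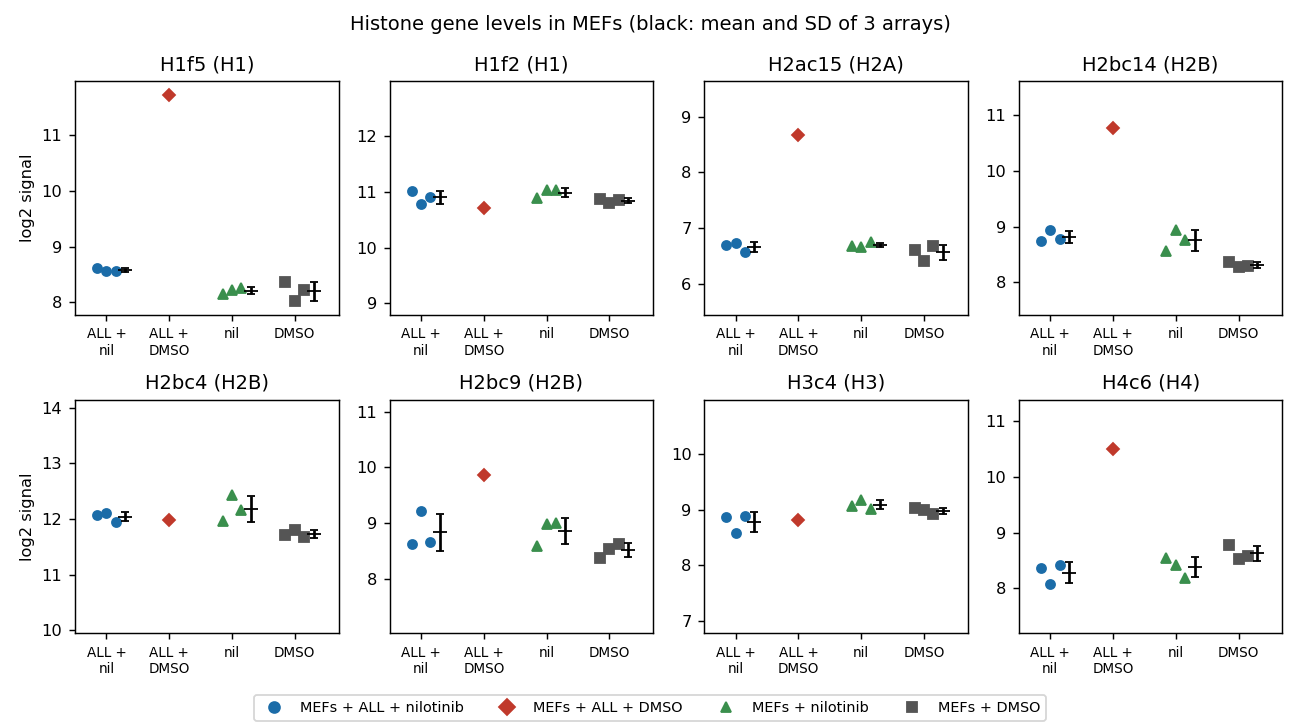
Log2 signal of 8 histone genes by group, with each symbol an array and black bars the mean and SD of the 3 arrays (nil stands for nilotinib, and every panel spans the same range). In H1f5, H2ac15, H2bc14 and H4c6 the MEFs + ALL + DMSO array stands above all others, in H2bc9 it stands above them by less, and in H1f2, H2bc4 and H3c4 it lies at or near their range.

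None of the 3 H3 genes with a probeset of their own was called. H3c4 (Hist1h3d) measured 8.87, 8.58 and 8.89 in MEFs + ALL + nilotinib, 8.81 in MEFs + ALL + DMSO, 9.07, 9.18 and 9.02 in MEFs + nilotinib, and 9.03, 9.00 and 8.93 in MEFs + DMSO. Its difference between MEFs + ALL + DMSO and MEFs + DMSO was -0.18 (95% interval -0.48 to 0.13). H3c7 and H3c15 had differences of 0.07 (95% interval -0.20 to 0.34) and 0.06 (95% interval -0.42 to 0.54) and signals not above the olfactory receptor level. Of the 12 H3 genes that RefSeq lists, 9 are read only by probesets that several genes share.

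Probesets assigned to several histone symbols numbered 26, of which 24 held distinct values. They cannot be credited to a gene. Of the 26, 25 were higher in MEFs + ALL + DMSO than in MEFs + DMSO, beside 6.67% of all probesets. Their median log2 difference was 1.86 over all 26. The 10 H3 probesets, each assigned to the same 12 symbols, H3c4, H3c7 and H3c15 included, all rose, by 1.89 to 2.19. Their median signal per array was 10.69, 10.82 and 10.63 in MEFs + ALL + nilotinib, 12.71 in MEFs + ALL + DMSO, 10.63, 10.56 and 10.64 in MEFs + nilotinib, and 10.66, 10.64 and 10.64 in MEFs + DMSO. The shared H3 signal was higher on the lone array than on every other array. The 7 H2B probesets rose by 1.44 to 1.93, both H2A probesets by 1.00 and 1.05, and 5 of 6 H4 probesets by 0.94 to 1.01, while the 6th had a difference of 0.55 (adjusted p = 0.0600). The probeset for H1f4 and H2bc6 rose by 0.60. Counted with the 30 genes, 38 of 56 units were called, beside the same 6.67% of all probesets. These units read overlapping sets of transcripts and some repeat the same values.

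**Figure D3:**
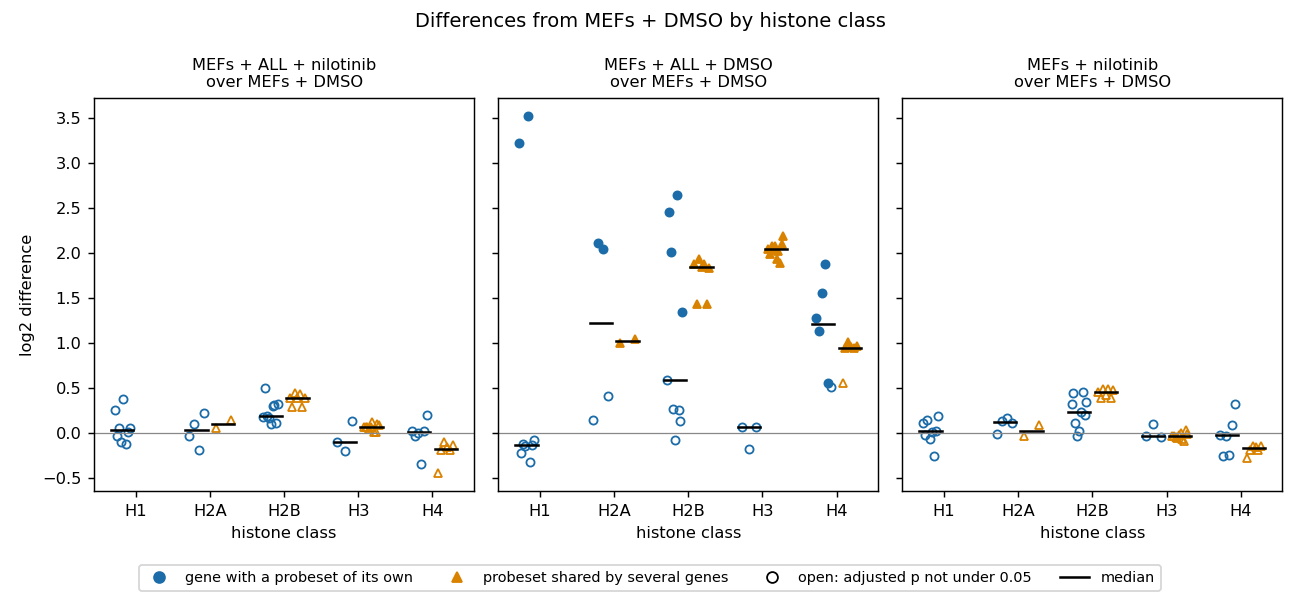
Log2 difference from MEFs + DMSO for genes with a probeset of their own (circles) and for shared probesets (triangles) by histone class, with filled symbols for an adjusted p under 0.05 and bars for medians. The 1 probeset shared by an H1 and an H2B gene is not plotted. In MEFs + ALL + DMSO the H3 triangles lie at 1.89 to 2.19 and the H3 circles near 0, and in both nilotinib panels the H2B symbols sit above 0 with 1 exception, H2bc21 at -0.03 in MEFs + nilotinib.

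The purpose of the culture with nilotinib was to see how MEFs respond to ALL cells under drug. In MEFs + ALL + nilotinib over MEFs + DMSO, 0 of the 30 histone genes passed the limma test, where 0.627% of all probesets did. At an unadjusted p under 0.05 there were 5 of 30, beside 16.2% of all probesets. The median log2 difference was 0.08, beside 0.00 over all genes, with 20 of 30 above 0. Arrays of the groups did not overlap for 8 genes that were higher and 2 that were lower, beside 14.1% and 10.6% of all probesets. H2bc14 had a difference of 0.50 (SE 0.101, adjusted p = 0.0774, 3 of 3 arrays above all MEFs + DMSO arrays), H1f5 of 0.37 (SE 0.0881, adjusted p = 0.110), H2bc4 of 0.31 (adjusted p = 0.232), H1f1 of 0.25 (adjusted p = 0.188) and H4c6 of -0.35 (adjusted p = 0.239). No pre-B or B cell marker of the 12 passed in this comparison. Of the 10 leukocyte markers 1 was called higher, Arhgdib (0.74). The median of the leukocyte list was -0.01, with 5 of 10 above 0. Its summed signal was 4540 to 5197 in MEFs + ALL + nilotinib and 3895 to 4283 in MEFs + DMSO. Arhgdib measured 10.92, 10.65 and 10.87 in MEFs + ALL + nilotinib and 10.13, 10.07 and 10.03 in MEFs + DMSO. The part of ALL cell RNA in the histone values was not tested. With limma's trend and robust options H2bc14 passed (adjusted p = 0.0460), and with array weights H2bc14 (adjusted p = 0.0237) and H1f5 (adjusted p = 0.0497) did.

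H2B genes had small differences of the same sign. All 9 H2B genes had a mean above that of MEFs + DMSO in MEFs + ALL + nilotinib, with a median of 0.19, and none was called. The arrays of 6 were higher without overlap, beside 14.1% of all probesets. The 7 shared H2B probesets, of which 6 held distinct values, had differences of 0.28 to 0.44, and none was called. None overlapped with MEFs + DMSO, and all had an unadjusted p under 0.05, beside 16.2% of all probesets. Their median signal per array was 10.23, 10.46 and 10.07 in MEFs + ALL + nilotinib, against 9.86, 9.89 and 9.77 in MEFs + DMSO. In MEFs + nilotinib without ALL cells it was 10.10, 10.47 and 10.40, also above all MEFs + DMSO arrays. The shared H4 probesets ran the other way, with a median difference of -0.17 in MEFs + ALL + nilotinib and of -0.17 in MEFs + nilotinib. The 6 H4 genes with a probeset of their own did not, with medians of 0.01 and -0.03. Both comparisons share the MEFs + DMSO arrays, so their likeness is no separate support, and shared probesets read overlapping sets of transcripts.

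In MEFs + nilotinib over MEFs + DMSO, the drug without ALL cells, 0 of 30 histone genes passed, as did 0% of all probesets. There were 5 with an unadjusted p under 0.05, beside 11.2% of all probesets, and the arrays did not overlap for 5 genes that were higher and 1 that was lower, beside 13.6% and 7.05%. The median difference was 0.09. H2bc4 differed by 0.46 (SE 0.113, adjusted p = 0.338) and H2bc14 by 0.44 (SE 0.101, adjusted p = 0.338), and the testis-type H1f6, which was not above the olfactory receptor level, by -0.26 (adjusted p = 0.439). Over the 9 H2B genes the median was 0.23, with 8 above 0.

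Compared with drug alone, MEFs + ALL + nilotinib over MEFs + nilotinib gave 0 calls among the 30, beside 0.186% of all probesets. At an unadjusted p under 0.05 there were 3, beside 9.27%, and 2 genes were higher and 3 lower without overlap, beside 7.80% and 6.62%. The median difference was -0.02. H1f5 differed by 0.37 (95% interval 0.17 to 0.57, adjusted p = 0.224), with 3 of 3 arrays above those of MEFs + nilotinib, H2ac4 by -0.36 (adjusted p = 0.460) and H3c4 by -0.31 (adjusted p = 0.358). The other 27 genes lay between -0.15 and 0.23. H2bc14, which differed from MEFs + DMSO by 0.50 with ALL cells and by 0.44 without them, differed by 0.06 here (95% interval -0.17 to 0.29).

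Between the cultures with ALL cells, histone genes were lower under drug. In MEFs + ALL + nilotinib over MEFs + ALL + DMSO 12 of the 30 were lower and 0 higher, where 3.76% of all probesets were lower and 0.582% higher. H1f5 fell by 3.15, H1f1 by 2.97, H2bc3 by 2.36, H2ac4 by 2.24, H4c6 by 2.23, H2ac15 by 2.01, H2bc14 by 1.95, H2bc18 by 1.82, H4c4 by 1.56, H4c14 by 1.26, H4c3 by 1.17 and H4c8 by 0.53. H2bc9 had a difference of -1.03 (adjusted p = 0.0610), which passed without MEFs + ALL + nilotinib replicate 2 (adjusted p = 0.00934). It also passed without probesets under a mean of 5, with trend and robust variance, and with array weights. The call for H4c3 was lost without MEFs + ALL + nilotinib replicate 1 (adjusted p = 0.0643) or replicate 3 (adjusted p = 0.0589). These 12 values rest on the same lone array as those above.

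Whether the difference with ALL cells depended on the drug was tested as an interaction, the difference of MEFs + ALL + DMSO from MEFs + DMSO less that of MEFs + ALL + nilotinib from MEFs + nilotinib. It passed for 12 of 30 genes, all larger under DMSO, beside 3.55% of all probesets in that direction and 0.399% in the other. These were H1f1 and H1f5 of the linker histones, H2ac4 and H2ac15, H2bc3, H2bc9, H2bc14 and H2bc18, and H4c4, H4c6, H4c8 and H4c14. The interaction of H2bc9 was 1.37 (adjusted p = 0.0447), and the call was lost with any of 7 arrays left out in turn (MEFs + ALL + nilotinib replicates 1 and 3, MEFs + nilotinib replicates 2 and 3, and each MEFs + DMSO replicate), with adjusted p of up to 0.104. That of H4c8 was 0.62 (adjusted p = 0.0247), and it was lost with any of 5 arrays left out (MEFs + ALL + nilotinib replicate 3, MEFs + nilotinib replicates 2 and 3, and MEFs + DMSO replicates 1 and 2), with adjusted p of up to 0.0718. That of H2bc1, which was not called, passed without MEFs + DMSO replicate 2 (adjusted p = 0.0298).

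Genes that accompany histone synthesis moved on the lone array as well. Of 29 genes of DNA replication and the G1/S transition, 27 were higher in MEFs + ALL + DMSO than in MEFs + DMSO (median 1.50). Of 16 genes of mitosis all 16 were (median 2.41), where 6.67% of all probesets were. Among these were Uhrf1 (3.60), which binds newly replicated DNA, Mcm5 (2.73), a subunit of the replicative helicase, Ccne2 (2.02), a G1/S cyclin, Top2a (3.71), a topoisomerase, Ccna2 (3.46), a cyclin of S and G2 phase, and Kif11 (4.0), a motor of the mitotic spindle. In MEFs + ALL + nilotinib over MEFs + DMSO the replication list had 28 of 29 genes above 0 and a median of 0.22. Mcm2 (0.42) and Ccne1 (0.50) passed, beside 0.627% of all probesets. Of the 29 genes 17 had an unadjusted p under 0.05, beside 16.2% of all probesets, and the arrays of 17 were higher without overlap, beside 14.1%, while the mitosis list had a median of 0.09 with 0 called. The summed linear signal of the mitosis list was 1977 to 2157 in MEFs + ALL + nilotinib, 11330 in MEFs + ALL + DMSO, 1888 to 1976 in MEFs + nilotinib and 1777 to 1919 in MEFs + DMSO.

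Of 15 genes that make and mature histone mRNA 4 were higher in MEFs + ALL + DMSO than in MEFs + DMSO, with a median of 0.34, where 6.67% of all probesets were. Slbp, the stem-loop binding protein, rose by 0.90, Eri1, an exonuclease that acts on the stem-loop, by 0.82, Casp8ap2 (FLASH), a component of the histone locus body, by 0.80 and Cstf2, a cleavage factor, by 0.70. Npat, the coactivator of histone transcription, had a difference of 0.56 and did not pass. Of 17 histone chaperones 4 rose, beside the same 6.67%, with a median of 0.36. They were Asf1b (2.34), Chaf1b (2.29) and Nasp (1.63), which hand new histones to replicating DNA, and Hira (0.30), the chaperone of H3.3 outside S phase. None of the genes of either list passed in MEFs + ALL + nilotinib over MEFs + DMSO. There 1 of the 15 processing genes and 3 of the 17 chaperones had an unadjusted p under 0.05, beside 16.2% of all probesets.

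Replacement histones rose in part, like the replication-dependent genes. Of 9 measured, 5 were higher in MEFs + ALL + DMSO than in MEFs + DMSO, beside 13 of the 24 replication-dependent genes and 6.67% of all probesets. They were Cenpa (1.71), the histone H3 of centromeres, Macroh2a1 (1.33), H2az1 (1.30), H2ax (1.23), which is phosphorylated at DNA breaks, and H2az2 (0.60). The median of the 9 was 0.60. H2aj had a difference of 0.26, Macroh2a2 of -0.18 and H1f10 of -0.22, and these were not called. H3f3a, which encodes H3.3, had a difference of 0.03, but its probeset was not above the olfactory receptor level, with 5.39, 5.45 and 5.41 in MEFs + DMSO. No gene of the list passed in MEFs + ALL + nilotinib over MEFs + DMSO (3 of 9 with an unadjusted p under 0.05, beside 16.2% of all probesets).

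**Figure D4:**
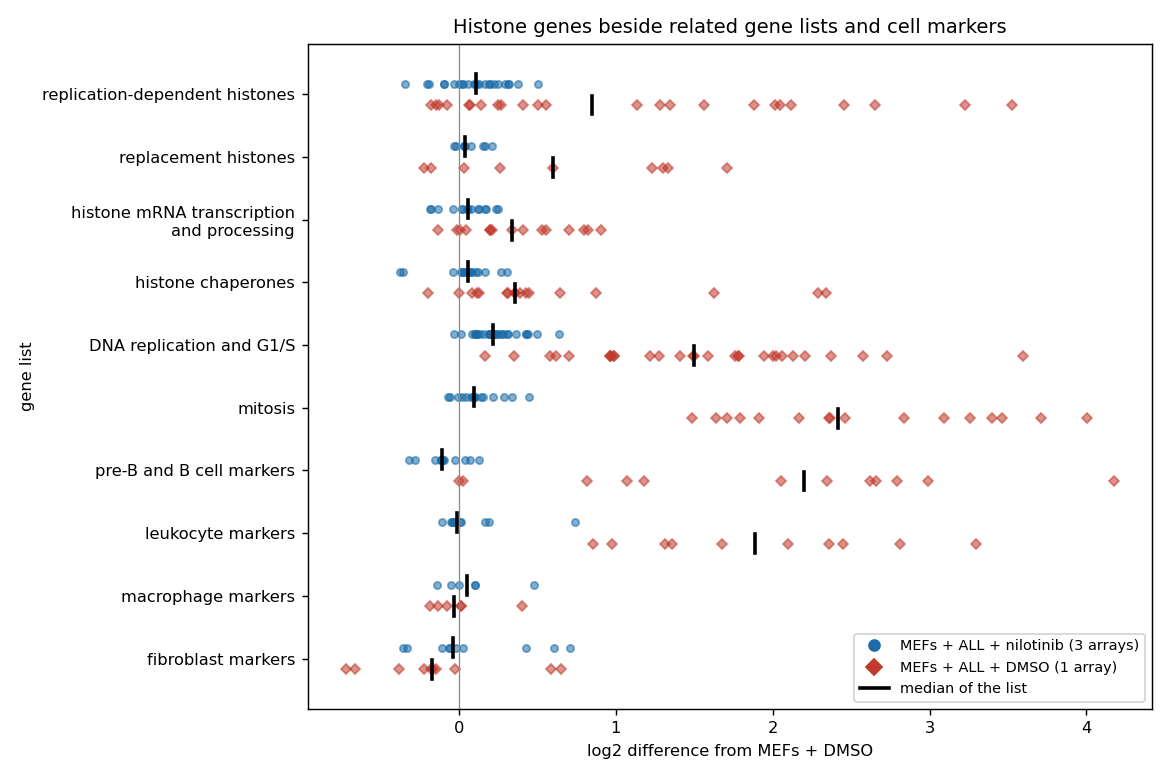
Log2 difference from MEFs + DMSO of each gene of 10 lists, in MEFs + ALL + nilotinib (circles, 3 arrays) and MEFs + ALL + DMSO (diamonds, 1 array), with black bars for list medians. In MEFs + ALL + DMSO the medians are 0.85 for replication-dependent histones, 1.50 for DNA replication, 2.41 for mitosis, 2.20 for pre-B and B cell markers and 1.89 for leukocyte markers, while fibroblast markers have a median of -0.17.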

How the data were processed

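RNA of 10 dishes of irradiated MEFs was measured on Mouse Gene 1.0 ST arrays. The values are the log2 of probeset signals that the authors deposited, called RMA-normalized in the study's legends and made with Partek, with no version given in the sources used here. RNA was labelled as cRNA, and whether cDNA was primed with oligo-dT or at random was not given in the sources used here, so how fully mRNAs without a poly(A) tail were labelled is unknown. The number of arrays limits the precision. Probesets were named by the platform annotation and 30 histone genes matched RefSeq by gene ID. Genes were compared with limma 3.58.1 in R 4.3.3, as 4 group means over 10 arrays, adjusted by Benjamini-Hochberg over 35557 probesets at a threshold of 0.05, and the fit was tested on simulated data. The members, lists and tests were chosen with earlier results of these data known. Named genes are those called in any comparison, up to 12 in each, the extreme genes of each class, the testis-type histones, and of each related list genes with the largest differences, fewer for some lists. H1f0 has no probeset of its own in the table, and H2aw, H2bu2 and H4f16, histone genes whose symbols fall outside the rule, were added after their values were seen. Alternatives were quantile normalization, centring, a filter on dim probesets (mean under 5), trend and robust variance, array weights, only the groups compared, leaving out each array, a replicate block, and other choices of probesets and members. Promoters were searched for 3 motifs on both strands, and a chromosome that holds none of the 30 genes was left out of the search. The replicate numbers were not used to pair dishes.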

Additional observations from a re-analysis of the deposited data

Results flagged for a closer look

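For 12 histone genes the difference between MEFs with and without ALL cells was not the same under DMSO as under nilotinib, by the interaction term in limma (Benjamini-Hochberg adjusted p under 0.05). The interactions, as log2 differences with ALL cells under DMSO less those under nilotinib, were 3.16 for H1f5, 3.08 for H1f1, 2.59 for H2bc3, 2.41 for H2ac4, 2.40 for H2bc14, 2.15 for H2ac15, 1.98 for H4c6, 1.93 for H2bc18, 1.53 for H4c4, 1.37 for H2bc9, 1.24 for H4c14 and 0.62 for H4c8. All 12 rest on the lone MEFs + ALL + DMSO array, on which 10 of 12 pre-B and B cell markers were higher as well, and the part of ALL cell RNA in them was not tested.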

How the results depend on the processing

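Among the counts, and among genes called or with an unadjusted p under 0.05, no direction reversed under the alternatives run. The count in MEFs + ALL + nilotinib over MEFs + DMSO was 0, and became 1 with trend and robust variance and 2 with array weights. With shared probesets as further units the counts were 38 of 56 in MEFs + ALL + DMSO over MEFs + DMSO, 38 in MEFs + ALL + nilotinib over MEFs + ALL + DMSO and 37 for the interaction. In the same directions 6.67%, 3.76% and 3.55% of all probesets were called. The medians of the first 2 comparisons were 1.21 and -1.15. Without germ cell type and replacement genes, an alternative chosen after seeing the data, these medians were 0.85 and -0.78. With genes above the olfactory receptor level alone they were 1.21 and -1.10, but that choice uses means that take in the lone array. The median in MEFs + ALL + nilotinib over MEFs + ALL + DMSO was -0.36 without probesets under a mean of 5. Leaving out each array gave 13 to 14 calls in MEFs + ALL + DMSO over MEFs + DMSO, 11 to 13 in MEFs + ALL + nilotinib over MEFs + ALL + DMSO (median -0.36 to -0.23), 10 to 12 for the interaction, and 0 in the comparisons among groups of 3, also without the lone array. The median in MEFs + ALL + nilotinib over MEFs + nilotinib lay on either side of 0 (-0.02 to 0.02). The interaction of H2bc9 missed the threshold with quantile normalization (adjusted p = 0.0787) and centring (adjusted p = 0.0503), and H2bc1 passed in MEFs + ALL + DMSO over MEFs + DMSO with quantile normalization (adjusted p = 0.0492). The cause was not tested. Whether the replicate numbers pair the dishes is not given by the labels. Pairs of arrays from different groups were correlated after the group mean of each probeset was subtracted. The 9 same-numbered pairs correlated at -0.29 to 0.24 and the 18 other pairs at -0.26 to 0.39, which cannot decide it. With the replicate block the calls in the comparisons among groups of 3 stayed at 0.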

Other observations

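Histone genes whose symbols fall outside the rule were looked at after their values were seen. H4f16 measured 7.98, 8.11 and 8.07 in MEFs + ALL + nilotinib, 9.36 in MEFs + ALL + DMSO, 8.09, 8.05 and 8.22 in MEFs + nilotinib, and 8.07, 7.99 and 8.10 in MEFs + DMSO. H2aw measured 9.76, 9.79 and 9.80 in MEFs + ALL + nilotinib, 10.47 in MEFs + ALL + DMSO, 9.64, 9.69 and 9.62 in MEFs + nilotinib, and 9.65, 9.69 and 9.63 in MEFs + DMSO. Their log2 differences between MEFs + ALL + DMSO and MEFs + DMSO were 1.31 and 0.82 by limma (adjusted p = 8.1e-05 and 2.8e-04). H2bu2 measured 5.65, 5.89 and 5.59 in MEFs + ALL + nilotinib, 5.79 in MEFs + ALL + DMSO, 5.67, 5.72 and 6.03 in MEFs + nilotinib, and 5.71, 5.67 and 5.94 in MEFs + DMSO, with overlapping arrays.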
